A study of Mus musculus with 8 samples.

Results

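Vitamin A (retinol) reaches cells in blood bound to retinol binding protein and transthyretin, and it enters some cells through the membrane receptor STRA6. Inside the cell retinol is oxidized to retinaldehyde and then, by ALDH1A enzymes, to retinoic acid, which binding proteins such as CRABP2 carry to the nuclear retinoic acid receptors, while DHRS3 returns retinaldehyde to retinol and CYP26 enzymes break retinoic acid down. Fibroblasts of the meninges, the membranes around the brain, are a known source of retinoic acid for the developing cortex, and several genes of this pathway, *Rarb*, *Dhrs3*, *Cyp26a1*, *Stra6* and *Crabp2* among them, are known to be induced by retinoic acid itself.

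The 9 genes described here were given as a list of names and were found by matching Ensembl identifiers to mouse symbols. They are *Aldh1a1*, *Aldh1a2*, *Dhrs3*, *Cyp26b1*, *Rbp4*, *Ttr*, *Stra6*, *Crabp2* and *Rarb*, out of 46078 genes in the count tables, and all 9 were among the 14736 genes with enough counts to be tested. RNA was sequenced in bulk from stroke infarcts of 8 wild-type male C57BL/6J mice, 18 months old, each of which had undergone DH stroke (distal occlusion of the middle cerebral artery and then hypoxia). From 1 week after stroke, 4 mice received sterile PBS (vehicle) and 4 received 4 g/kg of 2-hydroxypropyl-β-cyclodextrin (HPβCD), a sugar ring that takes up cholesterol, by subcutaneous injection 3 times per week for 6 weeks. Infarcts were collected at 7 weeks after stroke, located by eye and cut by hand, so the share of surrounding brain in a piece was not set. The question put to these genes is whether their expression in the chronic infarct differed with HPβCD.

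Libraries held between 16.6 M and 32.9 M gene counts, with vehicle 2 the deepest and the other 7 at or below 19.4 M. Values below are CPM, counts scaled per 1e+06 gene counts with TMM factors, and are given in the order of replicates 1 to 4. Differences are HPβCD minus vehicle on the log2 scale with a standard error (SE), and "called" means an adjusted p below 0.05 in edgeR's quasi-likelihood test over all genes tested. Vehicle 1 and 3 stood apart, in that the summed CPM of 7 neuron markers was 955 in vehicle 1 and 5758 in vehicle 3, against 17.5 to 38.9 in vehicle 2 and 4 and 7.46 to 82.2 in the HPβCD libraries. Differences that moved without vehicle 1 and 3 are therefore also given without them. Fibroblast markers were abundant in every library, and *Dcn*, a matrix proteoglycan, ranged from 1008 to 3284 CPM. In bulk tissue, fewer cells of a type and less RNA per cell cannot be told apart.

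Promoter sequence is shown first because retinoic acid receptors bind paired six-letter half-sites, classically 5 bases apart, and because *Rarb* is the textbook carrier of such a site. Windows from 250 bases before to 50 bases after each RefSeq gene start (GRCm38.p6) were searched on both strands for direct repeats of AGGTCA or of AGTTCA or of GGGTCA or of GGTTCA, in any pairing, spaced by 1, 2 or 5 bases. Of 32851 windows in all, 73 held a pair spaced by 1 base (0.222%), 88 by 2 bases (0.268%) and 32 by 5 bases (0.0974%). Windows were found for 7 of the 9 genes, all but *Crabp2* and *Ttr*, and 1 of the 7, *Rarb*, held a match. In the 30 bases of *Rarb* printed here (chr14:16575506-16575535, minus strand) the half-sites are in capitals, and the match runs from base -53 to base -37 of the RefSeq start. *Rarb* as annotated in GENCODE M21 begins further upstream, so the match lies within the span of that gene. Among 45 other vitamin A genes with a window, *Cyp26a1* held the one pair spaced by 5 bases (chr19:37697770-37697799, plus strand, match on the opposite strand, bases -32 to -16). Its stretch is shown to set the 2 matches of that spacing side by side. Another 1 of the 45 held a pair spaced by 1 base, and 0 held a pair spaced by 2 bases. The 250 bases before the start of *Dhrs3* (chr4:144892577-144892826, plus strand) are shown because *Dhrs3* was the gene of the 9 that was called. They held no match of these letters, which says nothing of the receptor elsewhere at the gene.
Rarb: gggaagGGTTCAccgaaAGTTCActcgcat
Cyp26a1: taaagaTGAACTttgggTGAACTaatttgt
Dhrs3: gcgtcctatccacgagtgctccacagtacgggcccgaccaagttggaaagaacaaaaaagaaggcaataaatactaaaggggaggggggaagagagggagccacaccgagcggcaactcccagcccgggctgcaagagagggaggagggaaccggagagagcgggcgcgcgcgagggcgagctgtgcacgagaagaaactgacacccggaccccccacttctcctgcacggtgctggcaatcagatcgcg

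With HPβCD, *Dhrs3* was higher by 2.33-fold and was the only one of the 9 genes that was called. *Crabp2* had 2.01-fold higher and *Aldh1a1* 2.05-fold lower mean CPM, and neither was called by edgeR. The remaining 6 genes had differences of either sign, and none of the 6 was called by edgeR or DESeq2. Thus 1 of 9 was called higher, where 1.17% of all genes tested were, and 0 of 9 were called lower, where 0.774% were. At an unadjusted p under 0.05 (edgeR), 2 of 9 were higher and 1 lower, beside 1741 and 2351 of the 14736 genes tested. By DESeq2, the test used in the study, 2 of 9 were called higher (*Dhrs3* and *Crabp2*) against 5.92% of all genes, and 1 of 9 lower (*Aldh1a1*) against 11.1%. Of the 9 differences 4 were above 0 and 5 below, with a median of -0.20, beside -0.05 over all genes tested. These values over all genes are the background for each list below as well.

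**Figure D1:**
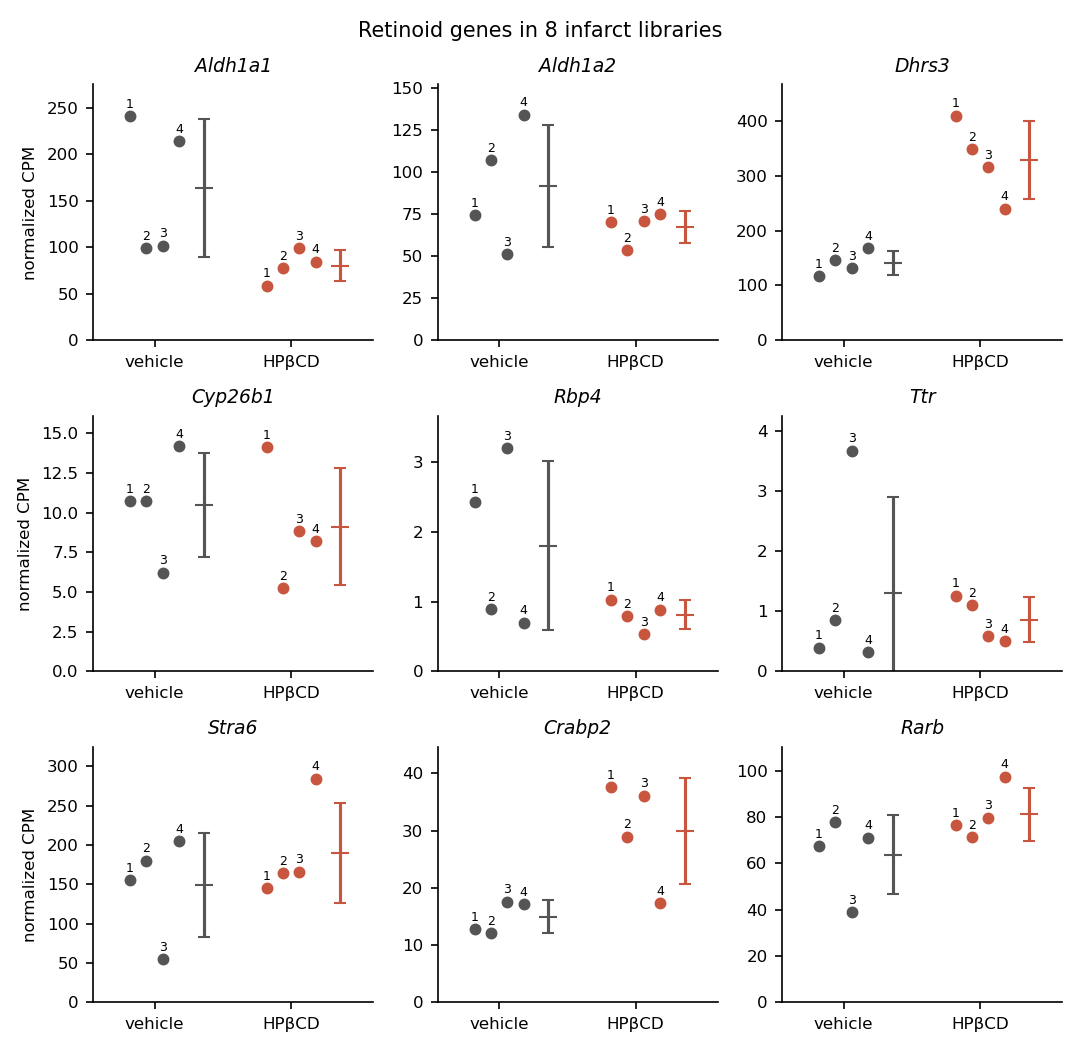
Normalized CPM (linear axis from 0) of the 9 retinoid genes in each of the 4 vehicle (gray) and 4 HPβCD (red) libraries, with replicate numbers at the points, and the group mean with a bar of 1 SD to the right, cut at 0 for *Ttr*. All 4 HPβCD libraries lie above all 4 vehicle libraries for *Dhrs3*, and for *Aldh1a1* the groups are separated by a gap of less than 1 CPM.

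The enzymes that make retinoic acid are *Aldh1a1* and *Aldh1a2*. *Aldh1a1* (chr19:20492715-20643465, plus strand), a retinaldehyde dehydrogenase that astrocytes and some neurons also express, was at 241, 99.3, 102 and 214 CPM in vehicle libraries and at 58.9, 77.8, 99 and 84.6 CPM in HPβCD libraries. Vehicle 1 and 4 were high, and vehicle 2 and 3 lay just above the highest HPβCD library, so that the groups did not overlap. The means were 164 ± 73.9 (SD, n = 4) and 80.1 ± 16.6 CPM (SD, n = 4), a difference of -1.03 (SE 0.32, adjusted p = 0.0927 by edgeR), and DESeq2 gave -1.01 with an adjusted p of 0.0292. Without vehicle 1 and 3 the difference was -0.95 (adjusted p = 0.142, edgeR).

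The same libraries differed in astrocyte markers. Their summed CPM ranged from 2120 to 8956 in vehicle and from 606 to 2431 in HPβCD libraries, 6 of 6 had differences below 0, with a median of -1.57, and 0 were called by edgeR (4 at an unadjusted p under 0.05, 4 by DESeq2). *Aqp4*, the water channel of astrocyte endfeet, was at 841, 414, 254 and 694 CPM in vehicle and at 65.6, 80.9, 263 and 234 CPM in HPβCD libraries. Vehicle 1 and 4 were the highest libraries for both *Aqp4* and *Aldh1a1*, and HPβCD 1 and 2 the lowest for both. *Gfap* was also highest in vehicle 1 and 4. The list was not uniform, as *Slc1a2*, its most abundant marker, was at 3747, 683, 7415 and 1110 CPM in vehicle libraries. Like the list sum, *Slc1a2* was highest in vehicle 3, where *Aldh1a1* was at 102 CPM. Without vehicle 1 and 3 the 6 marker differences ranged from -1.77 to -0.15, in place of -3.18 to -0.26. That of *Slc1a2* was then -1.31 in place of -3.18, that of *Gfap* -1.04 in place of -1.15, and that of *Aqp4* stayed at -1.77. The part of astrocyte content in the *Aldh1a1* difference was not tested.

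*Aldh1a2* (chr9:71215789-71296243, plus strand), the retinaldehyde dehydrogenase typical of meningeal fibroblasts, was at 74.3, 107, 51.2 and 134 CPM in vehicle libraries and at 70.3, 53.4, 70.7 and 75 CPM in HPβCD libraries. The HPβCD libraries were close together and lay within the vehicle range. Means were 91.6 ± 36.4 and 67.4 ± 9.53 CPM (SD, n = 4 each), and the difference of -0.44 (SE 0.28) was not called (adjusted p = 0.336, edgeR). Without vehicle 1 and 3, the 2 vehicle libraries with the lowest *Aldh1a2*, it was -0.82 (adjusted p = 0.0521, edgeR), and the groups no longer overlapped. With fewer vehicle libraries, groups separate more readily.

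*Dhrs3* (chr4:144892827-144928209, plus strand), the enzyme that reduces retinaldehyde to retinol and so limits the formation of retinoic acid, was at 117, 146, 132 and 168 CPM in vehicle libraries. It was at 409, 348, 316 and 240 CPM in HPβCD libraries. Every HPβCD library lay above every vehicle library, and the nearest libraries were HPβCD 4 and vehicle 4. Means were 141 ± 21.6 and 328 ± 70 CPM (SD, n = 4 each), a difference of 1.22 (SE 0.19, adjusted p = 0.0427 by edgeR, 8.89e-06 by DESeq2). The size of the difference held between 1.08 and 1.35 under every alternative run, but the edgeR call was lost without vehicle 1 (adjusted p = 0.149), vehicle 4 (0.0635), HPβCD 1 (0.155), HPβCD 2 (0.172) or HPβCD 3 (0.0899), without vehicle 1 and 3 together (0.0504), with library totals alone (0.0543) or with the replicate block (0.0843).

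Fibroblast transcripts were more abundant in the same HPβCD libraries. The summed CPM of 6 markers ranged from 2343 to 6012 in vehicle and from 8638 to 9250 in HPβCD libraries. By edgeR 2 of 6 were called higher (*Col1a1* and *Col1a2*, chains of type I collagen), and the median difference was 0.94. Without vehicle 1 and 3 the 6 differences ranged from -0.06 to 1.36, in place of 0.41 to 1.61. Those of *Col1a1*, *Col1a2* and *Dcn* were then 1.36, 1.21 and 0.40, in place of 1.61, 1.46 and 0.80. Of 9 markers of meningeal fibroblasts 8 had differences above 0. By edgeR 0 were called (3 at an unadjusted p under 0.05, 3 by DESeq2, in each case 2 of them higher). The marker below 0 was *Slc6a13* (-0.84), lower in every HPβCD library than in every vehicle library. The list sum was 4538 to 6168 CPM in vehicle and 6902 to 8224 CPM in HPβCD libraries, most of it *Ptgds* (3698 to 4788 and 5220 to 6374). Without vehicle 1 and 3 the 3 most abundant markers differed by 0.33 (*Ptgds*), 1.11 (*Igf2*) and -0.07 (*Zic1*). *Col1a1* was at 336, 399, 166 and 353 CPM in vehicle and at 1039, 1174, 913 and 708 CPM in HPβCD libraries, and *Col1a2* at 825, 1215, 641 and 999 CPM and at 2594, 2996, 2578 and 1942 CPM. Both were lowest of the HPβCD libraries in HPβCD 4, as *Dhrs3* was. The other markers of the list were not lowest there, and *Dcn* was at 2790, 2254, 3284 and 3233 CPM in HPβCD libraries. The part of fibroblast content in the *Dhrs3* difference was not tested. Mural cell markers (375 to 570 in vehicle, 552 to 862 in HPβCD libraries) and those of macrophages and microglia (9802 to 21563 and 26407 to 32625) had higher sums with HPβCD as well, with 1 of 6 called higher in each list.

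*Cyp26b1* (chr6:84571414-84593908, minus strand), the cytochrome P450 that oxidizes and inactivates retinoic acid in brain, was low, at 10.7, 10.7, 6.22 and 14.2 CPM in vehicle and 14.1, 5.26, 8.83 and 8.2 CPM in HPβCD libraries. The groups covered nearly the same range. Means were 10.4 ± 3.26 and 9.1 ± 3.68 CPM (SD, n = 4 each), and the difference was -0.20 (SE 0.34, adjusted p = 0.747, edgeR), or -0.43 without vehicle 1 and 3. Its relative *Cyp26a1*, which retinoic acid induces strongly in many cells and which carries the paired half-sites printed above, had 0, 1, 0 and 1 counts in vehicle and 8, 0, 0 and 1 counts in HPβCD libraries. That was below the count filter, so it was not tested, and 8 of the counts came from HPβCD 1 alone.

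The blood carriers *Rbp4* and *Ttr* were near the bottom of the range. *Rbp4* (chr19:38116629-38125281, minus strand), the retinol carrier, was at 2.43, 0.888, 3.2 and 0.698 CPM in vehicle and at 1.03, 0.795, 0.535 and 0.886 CPM in HPβCD libraries, from 53 counts or fewer per library. Vehicle 1 and 3 were high, while vehicle 2 and 4 lay among the HPβCD libraries. The difference of -1.13 (SE 0.52, adjusted p = 0.196, edgeR) became 0.04 without vehicle 1 and 3. These are the libraries with the high neuron markers, and the part of neuron content in the *Rbp4* values was not tested.

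*Ttr* (chr18:20665280-20674321, plus strand), transthyretin, is a product of the choroid plexus, the tissue that makes cerebrospinal fluid. It was at 0.395, 0.859, 3.68 and 0.322 CPM in vehicle and at 1.26, 1.1, 0.589 and 0.499 CPM in HPβCD libraries, from 6 to 61 counts. Only vehicle 3 was high. The difference was -0.59 (SE 0.77, adjusted p = 0.666, edgeR), and it was 0.65 without vehicle 3. Of 12 choroid plexus markers 6 passed the count filter, 0 were called higher and 1 lower, and the median difference was -0.22. *Tmem72* had no count in any library, *Kcne2* reached 0.0573 CPM, and *Otx2* reached 0.725 CPM, in vehicle 3. Others were present: *Kl* and *Kcnj13* had mean levels of 3.19 to 5.14 CPM, *Clic6* and *Aqp1* were higher in every HPβCD library without being called (1.08 and 1.30), and *Prlr* was the marker called lower (-3.13, adjusted p = 0.0483, edgeR). The part of choroid plexus content in the *Ttr* values was not tested. The list sum, 663 to 814 in vehicle and 430 to 636 in HPβCD libraries, was nearly all *Enpp2*, which other cells express too.

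*Stra6* (chr9:58063788-58153996, plus strand), the receptor through which retinol leaves its blood carrier and enters the cell, was at 155, 180, 54.9 and 205 CPM in vehicle and at 145, 164, 166 and 284 CPM in HPβCD libraries. Vehicle 3 was low and HPβCD 4 high, and the other 6 libraries lay together. Means were 149 ± 65.8 and 190 ± 63.6 CPM (SD, n = 4 each). The difference of 0.35 (SE 0.39, adjusted p = 0.608, edgeR) became -0.01 without vehicle 1 and 3.

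*Crabp2* (chr3:87948666-87953376, plus strand), the cytosolic protein that delivers retinoic acid to nuclear receptors, was at 12.8, 12.1, 17.6 and 17.2 CPM in vehicle libraries and at 37.6, 28.9, 36.1 and 17.3 CPM in HPβCD libraries. The vehicle libraries were close together, HPβCD 1, 2 and 3 lay well above them, and HPβCD 4 lay within their range. Means were 14.9 ± 2.88 and 30 ± 9.26 CPM (SD, n = 4 each), with a difference of 1.01 (SE 0.26, adjusted p = 0.0688 by edgeR, 0.00622 by DESeq2). Without HPβCD 4 the difference was 1.20 and was called (adjusted p = 0.0354, edgeR). HPβCD 4 was also the HPβCD library with the lowest *Dhrs3*. Its summed fibroblast markers, 8664 CPM, were close to the 8638 CPM of HPβCD 1. Of these markers *Col1a1* and *Col1a2* were, like *Dhrs3*, lower there than in the other HPβCD libraries, and the rest were not.

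*Rarb* (chr14:16430839-16819156, minus strand), a nuclear receptor for retinoic acid and a classical target of its own ligand, was at 67.3, 77.6, 38.9 and 71.1 CPM in vehicle and at 76.3, 71.2, 79.7 and 97.4 CPM in HPβCD libraries. Vehicle 3 was low, and the other vehicle libraries overlapped the lower HPβCD libraries. Means were 63.7 ± 17.1 and 81.1 ± 11.4 CPM (SD, n = 4 each), and the difference was 0.35 (SE 0.22, adjusted p = 0.333, edgeR), or 0.14 without vehicle 1 and 3. Exons of *Top2b* and of *Gm48162* on the opposite strand cover 38.4% of the exon length of *Rarb*, and since the strand setting of the counting is not given in the sources used here, reads there cannot be assigned with certainty.

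Groups failed to overlap for 2 of the 9 genes, *Dhrs3* (HPβCD above) and *Aldh1a1* (vehicle above), beside 16.8% of all genes tested in either direction and 8.77% with HPβCD above. With 9 genes a count of 2 is close to that share, so it does not set the list apart from all genes. For *Aldh1a1* the nearest libraries were at 99.3 CPM (vehicle 2) and 99 CPM (HPβCD 3). With other scaling factors (RLE) the count was 3 of 9, and the share of all genes was not computed there. *Dhrs3*, *Crabp2*, *Rarb* and *Stra6* are among the genes that retinoic acid is known to induce. Of them *Dhrs3* was called by both tests, *Crabp2* by DESeq2 alone, and *Rarb* and *Stra6* by neither. The part of retinoic acid in these values was not tested.

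Per kilobase of exon, *Dhrs3* had the highest mean level of the 9 in both groups, 48.1 ± 7.39 CPM per kb in vehicle and 112 ± 23.9 in HPβCD libraries (SD, n = 4). In vehicle it was followed by *Aldh1a2* (40.5 ± 16.1), *Aldh1a1* (33.2 ± 15) and *Stra6* (25.5 ± 11.3), whose ranges overlapped one another and, for the first 2, that of *Dhrs3*. *Rarb* (12.1 ± 3.25) and *Crabp2* (11.3 ± 2.18) formed a middle level, and *Cyp26b1* (1.95 ± 0.608), *Rbp4* (1.34 ± 0.902) and *Ttr* (1.11 ± 1.35) a low one. Neighbors within each of these levels did not differ beyond their spread, and *Rarb* and *Stra6* overlapped through the low *Stra6* of vehicle 3. In HPβCD libraries the order was *Dhrs3*, *Stra6* (32.6 ± 10.9), *Aldh1a2* (29.8 ± 4.21), *Crabp2* (22.7 ± 7.01), *Aldh1a1* (16.2 ± 3.37), *Rarb* (15.4 ± 2.16), *Cyp26b1* (1.7 ± 0.688), *Ttr* (0.727 ± 0.317) and *Rbp4* (0.605 ± 0.155). There *Dhrs3*, at 82.1 to 140 CPM per kb, lay above the range of every other gene, the next being *Stra6* at 24.8 to 48.7. From *Stra6* to *Rarb* each gene overlapped the next in this order, as did each from *Cyp26b1* to *Rbp4*, while *Rarb* (lowest 13.5) and *Cyp26b1* (highest 2.64) were apart.

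Ratios within a library do not depend on its scaling. The log2 ratio of *Aldh1a1* to *Aldh1a2* was 0.82 ± 0.75 in vehicle and 0.24 ± 0.36 in HPβCD libraries (SD, n = 4 each). That of *Aldh1a2* to *Cyp26b1*, an enzyme that makes retinoic acid against one that removes it, was 3.10 ± 0.23 and 2.96 ± 0.45. For *Rbp4* to *Ttr* it was 0.89 ± 1.28 and -0.02 ± 0.58. The groups overlapped for all 3 ratios, whose differences were -0.58, -0.14 and -0.91. They were -0.05, -0.32 and -0.60 without vehicle 1 and 3.

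Levels were also set against the mean log2 CPM of the 6 fibroblast markers in the same library, which was 9.04 ± 0.65 in vehicle and 10.17 ± 0.04 in HPβCD libraries (SD, n = 4 each). On that scale *Dhrs3* and *Crabp2* differed little between the groups, by 0.08 and -0.17, with overlapping libraries. *Aldh1a1* (-2.07), *Aldh1a2* (-1.49), *Cyp26b1* (-1.35), *Rbp4* (-1.97) and *Rarb* (-0.75) were lower in every HPβCD library than in every vehicle library, 5 of 9, but so were 67.7% of all genes tested, the reference itself being 1.13 higher with HPβCD. *Stra6* (-0.67) and *Ttr* (-1.17) overlapped. With vehicle 1 and 3 left out, the values were -1.52 for *Aldh1a1*, -1.48 for *Aldh1a2*, -1.15 for *Cyp26b1*, -0.63 for *Rbp4*, -0.52 for *Rarb*, -0.71 for *Stra6* and -0.13 for *Ttr*, and those of *Dhrs3* and *Crabp2* were 0.41 and 0.35. With the collagen genes left out of the markers, *Dhrs3* and *Crabp2* differed by 0.42 and 0.18, so their small differences depend on the markers chosen. *Aldh1a1* then differed by -1.73, *Aldh1a2* by -1.15, *Cyp26b1* by -1.01, *Rbp4* by -1.63 and *Rarb* by -0.40. *Stra6* and *Ttr* differed by -0.33 and -0.83. Without the collagen genes 3 of 9 were separated, and the share of all genes was not computed on that scale.

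**Figure D2:**
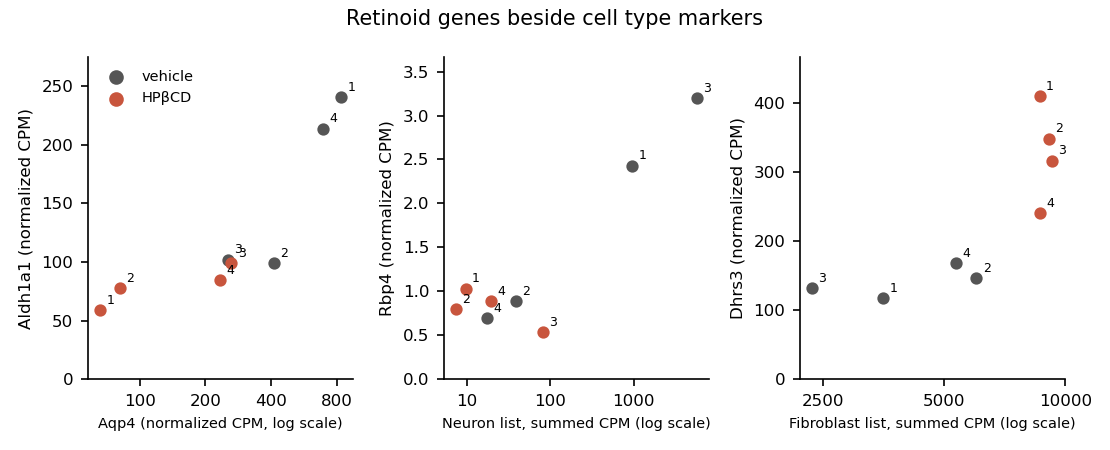
CPM of a retinoid gene (linear axis from 0) against cell type markers in the same library (log axis), for *Aldh1a1* against *Aqp4*, *Rbp4* against the summed neuron markers and *Dhrs3* against the summed fibroblast markers, with replicate numbers at the points (vehicle gray, HPβCD red). Vehicle 1 and 4 are high on both axes in the first panel and vehicle 1 and 3 in the second, and in the third the 4 HPβCD libraries have summed markers of 8638 to 9250 CPM while *Dhrs3* spans 240 to 409 CPM. *Aqp4* is 1 of 6 astrocyte markers, whose summed CPM was highest in vehicle 3 (8956).

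Another 60 genes of vitamin A metabolism and retinoic acid response were examined, of which 44 were tested. Of these 2 were called higher by edgeR, *Stra6l* and *Rarg*, beside 1.17% of all genes tested, and 0 were called lower, beside 0.774%. At an unadjusted p under 0.05 (edgeR), 11 of the 44 were higher and 5 lower, beside 1741 and 2351 of the 14736 genes tested. Differences were above 0 for 26 and below 0 for 18, with a median of 0.18. Groups failed to overlap with HPβCD above for 8 and with vehicle above for 0 of the 44. Over all 14736 genes tested, 8.77% had HPβCD above, and 1181 genes had vehicle above. DESeq2 called 9 of the 44 higher, beside 5.92% of all genes, and 1 lower, beside 11.1%.

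**Figure D3:**
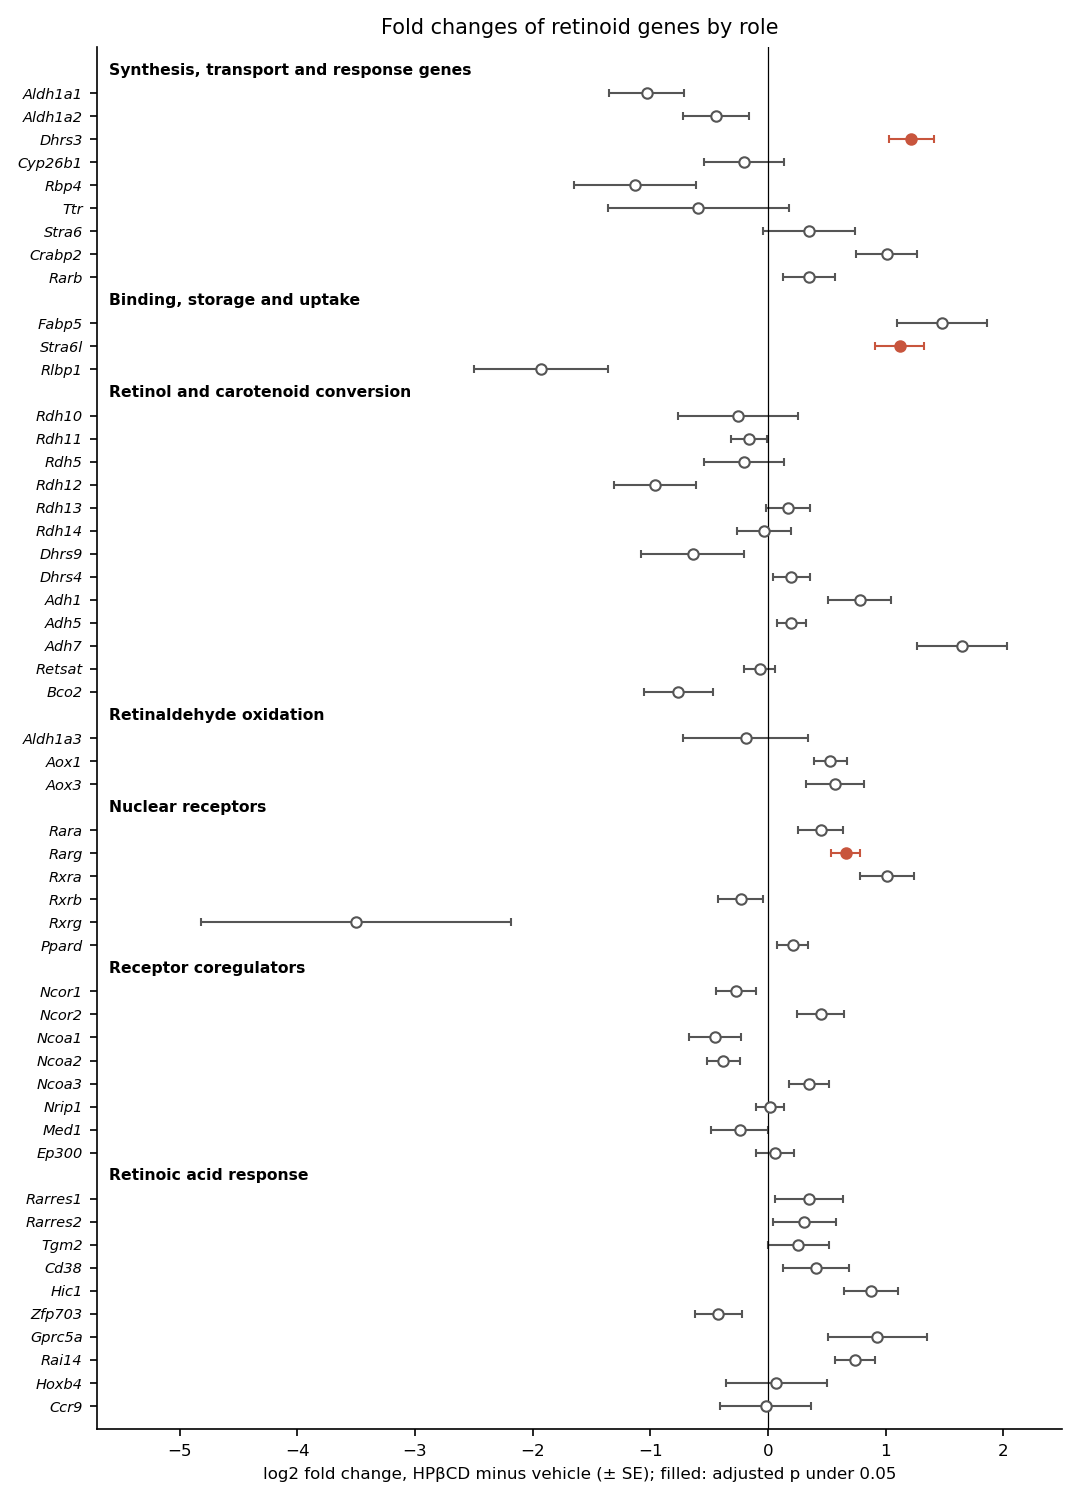
Log2 fold change (HPβCD minus vehicle) with 1 SE from edgeR for the 9 retinoid genes and other vitamin A genes tested, grouped by role, with filled red points for an adjusted p under 0.05. *Dhrs3*, *Stra6l* and *Rarg* are the 3 filled points, all to the right of 0.

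*Stra6l*, which encodes a second membrane receptor for retinol binding protein, was at 11, 18.6, 15.3 and 22.4 CPM in vehicle and at 35.4, 39.1, 37.5 and 34.3 CPM in HPβCD libraries. The groups were well apart. The difference was 1.12 (SE 0.21, adjusted p = 0.0483 by edgeR, 0.000328 by DESeq2). The call was lost without vehicle 1 (adjusted p = 0.149), vehicle 4 (0.0635), HPβCD 1 (0.156), HPβCD 2 (0.175), HPβCD 3 (0.0899) or HPβCD 4 (0.0532, all by edgeR), with library totals alone (0.0575) or with the replicate block (0.0843), and it held without vehicle 1 and 3 together (0.0424), at a size of 0.85.

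*Rarg*, the gamma receptor for retinoic acid, was at 11.6, 11.6, 11.8 and 11.4 CPM in vehicle and at 19.9, 18.2, 17.3 and 17.9 CPM in HPβCD libraries. Here both groups were tight and apart. The difference was 0.66 (SE 0.12, adjusted p = 0.0483 by edgeR, 0.000148 by DESeq2), and it lost its call without vehicle 1 (0.155), vehicle 4 (0.066), HPβCD 1 (0.156), HPβCD 2 (0.175) or HPβCD 3 (0.0899, all by edgeR), without vehicle 1 and 3 together (0.0694), with no filter (0.0698), with library totals alone (0.0589) or with the replicate block (0.09), at a size of 0.58 to 0.69. *Rxra*, the partner with which retinoic acid receptors bind DNA, was at 75.6, 117, 84.1 and 142 CPM in vehicle and at 204, 268, 189 and 180 CPM in HPβCD libraries. Its groups did not overlap either, and its difference of 1.01 (SE 0.23) had an adjusted p of 0.0599 by edgeR and 0.00275 by DESeq2, and it was 0.71 without vehicle 1 and 3. *Rxrb* differed by -0.23 and was not called. Of 6 nuclear receptors tested, 1 was called, and 4 had differences above 0.

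**Figure D4:**
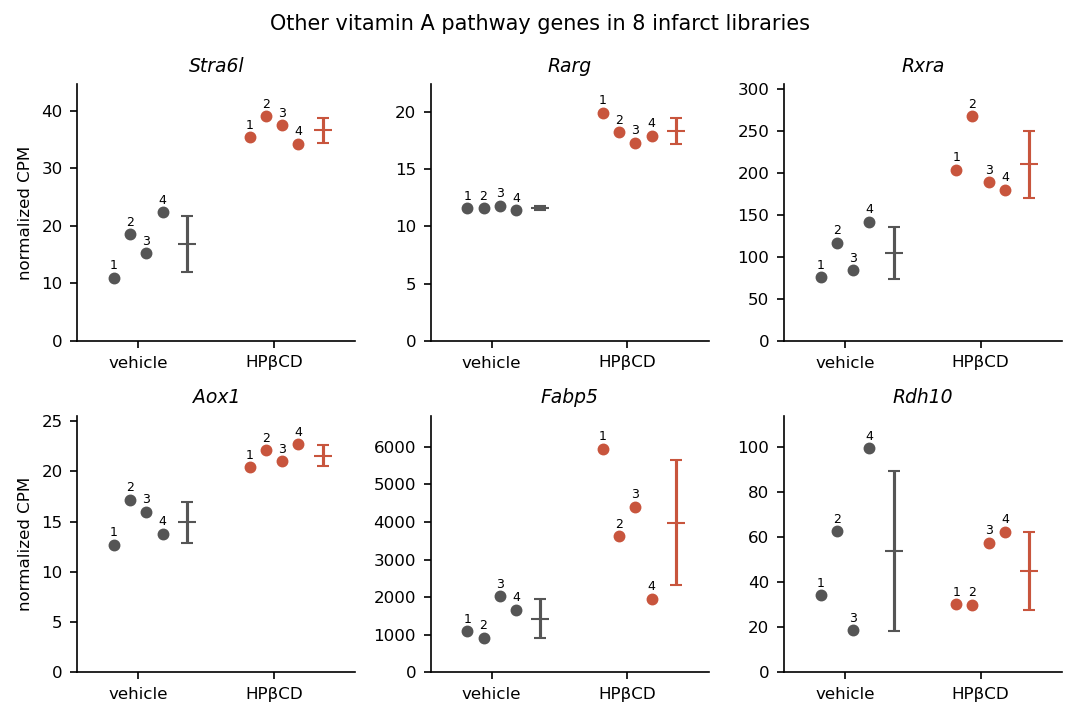
Normalized CPM (linear axis from 0) of 6 other vitamin A genes in each vehicle (gray) and HPβCD (red) library, with replicate numbers at the points and the group mean with a bar of 1 SD to the right. The groups are apart for *Stra6l*, *Rarg*, *Rxra* and *Aox1*, and they overlap for *Fabp5* and *Rdh10*.

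Among binding proteins, *Fabp5*, a fatty acid binding protein that can also carry retinoic acid, was the most abundant, at 1090, 920, 2035 and 1665 CPM in vehicle and 5945, 3621, 4402 and 1963 CPM in HPβCD libraries. As with *Crabp2*, HPβCD 4 lay within the vehicle range. The difference was 1.48 (SE 0.38, adjusted p = 0.0688 by edgeR, 0.00185 by DESeq2). *Fabp5* is also known from macrophages, and the part of macrophage content in its difference was not tested.

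Retinol and carotenoid converting enzymes gave 0 calls among 13 tested by edgeR (4 at an unadjusted p under 0.05, 1 by DESeq2), with 5 differences above 0 and a median of -0.07. *Rdh10*, the main retinol dehydrogenase of the embryo, was at 34.4, 62.7, 18.8 and 99.5 CPM in vehicle and 30.2, 30.1, 57.7 and 62.5 CPM in HPβCD libraries, and its difference of -0.25 (SE 0.51, adjusted p = 0.789, edgeR) was 0.24 without vehicle 4 and -0.83 without vehicle 1 and 3. *Adh5* differed by 0.20 and was not called. Of 3 retinaldehyde oxidizing enzymes tested 0 were called by edgeR (1 at an unadjusted p under 0.05 and the same 1, *Aox1*, by DESeq2), and *Aox1* (0.53, SE 0.14, adjusted p = 0.0744) and *Aox3* (0.57, SE 0.25, adjusted p = 0.181), aldehyde oxidases, had differences above 0, which were 0.48 and 0.26 without vehicle 1 and 3. *Aox1* was higher in every HPβCD library, at 20.4 to 22.7 against 12.7 to 17.2 CPM.

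Receptor coregulators gave 0 calls among 8 tested by edgeR and by DESeq2 (1 at an unadjusted p under 0.05), and *Ncor1* (-0.27) and *Ep300* (0.06), the most abundant of them, differed by less than 2 standard errors. Of 10 retinoic acid response genes tested 0 were called by edgeR (2 at an unadjusted p under 0.05, 2 by DESeq2), 8 had differences above 0, and the median was 0.33. *Cd38*, an ectoenzyme, differed by 0.41 (SE 0.28) and *Tgm2*, a transglutaminase, by 0.26 (SE 0.26). Without vehicle 1 and 3 these values were 0.03 and -0.10. The 2 genes of retinoic acid breakdown other than *Cyp26b1* were below the count filter.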

How the data were processed

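The authors prepared stranded libraries from polyadenylated RNA, sequenced them as paired-end reads, trimmed them with Trimmomatic (0.32), aligned them to GRCm38 with STAR (2.5.2b) and counted reads per gene with HTSeq. The HTSeq version, its strand option and the annotation release are not given in the sources used here. The authors deposited raw counts, 1 table per animal. The 5 summary lines per table (26.6% to 36.6% of a library) were left out. Groups and replicate numbers came from the labels, which give no batch. P-values measure the spread between these libraries, taken as 1 animal each.

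Counts were tested with edgeR (4.0.16, R 4.3.3) by the robust quasi-likelihood F test with TMM factors, filterByExpr by group, no covariate and Benjamini-Hochberg adjustment over 14736 genes, and checked on simulated data. DESeq2 (1.42.0), other scaling factors, no filter, the replicate number as a block and leaving out libraries were alternatives. A prior count of 2 was added for log2 CPM, and each SE is the log2 fold change over the square root of F. Coordinates and exon lengths are from GENCODE M21 (GRCm38), and promoters from RefSeq (GRCm38.p6).

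Deviations of same-numbered libraries from their group means had correlations of -0.26, 0.24, 0.33 and 0.1. The same number was the best match for replicates 2 and 3 and not for 1 and 4. The numbers were therefore not taken as pairs in the main test, and the replicate block was run as an alternative. All pairs of libraries differed by more than sampling noise (lowest chi-square per degree of freedom 20.3). The genes and lists were chosen with earlier results of these data known. Named were the 9 genes, each vitamin A gene called by edgeR and the 2 most abundant tested per role, up to 3 abundant markers per list, and the genes most alike by correlation. One item that the rule names is not reported here. The choroid plexus markers, *Slc6a13* and *Cyp26a1* were named after their values were seen.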

Additional observations from a re-analysis of the deposited data

How the results depend on the processing

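Of 126 values of the 9 genes under alternatives, 111 kept their direction and their side of the threshold, 8 lost and 3 gained a call, and 4 turned. For 14 other vitamin A genes the counts were 168 of 196, 17, 5 and 6. The 1 gene of 9 called higher became 2 by DESeq2 and 0 with library totals alone, with the replicate block or without vehicle 1 and 3, and 0 to 2 on leaving out single libraries. The 0 called lower became 1 by DESeq2. The 2 other vitamin A genes called higher became 9 by DESeq2, 0 with library totals or the replicate block, 1 without a count filter, 1 without vehicle 1 and 3 and 0 to 3 on leaving out single libraries, and the 0 called lower became 1 by DESeq2. Without vehicle 1 and 3, groups failed to overlap for 4 of the 9 genes in place of 2, but fewer vehicle libraries separate more readily. Relative to fibroblast markers without collagens, 3 of the 9 were separated in place of 5. The share of all genes was not computed for either setting, so these counts have no background. Without vehicle 1 and 3, differences turned to 0.04 (*Rbp4*), 0.50 (*Ttr*), -0.01 (*Stra6*), 0.07 (*Rxrb*), -0.10 (*Ep300*) and -0.10 (*Tgm2*), and *Ep300* was -0.02 with library totals. On leaving out single libraries *Ttr* ranged from -0.90 to 0.65, *Rdh10* from -0.54 to 0.24 and *Ep300* from -0.01 to 0.19. The cause was not tested. Over all genes 287 were called, against 2899 by DESeq2, 11 with library totals, 9 with the replicate block, which moves no direction of the 9 genes, and 0 (vehicle 1, vehicle 4, HPβCD 2 or HPβCD 3 left out) to 629 (vehicle 3 left out). At an unadjusted p under 0.05 the count was 4092, and 2922 to 4425 on leaving out single libraries. Library totals moved the median of all genes to -0.1229, from -0.0452. With 61 counts or fewer in every library, *Rbp4* and *Ttr* are measured imprecisely. The highest counts, 53 for *Rbp4* and 61 for *Ttr*, both came from vehicle 3, and the part of depth was not tested.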

Other observations

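Correlations of log2 CPM over the 8 libraries are given as a description. They share library composition and depth, and both groups enter them, so genes that differ between the groups correlate for that reason as well. The gene most alike to *Dhrs3* was *Ramp2* (Pearson r = 0.993), a receptor-modifying protein of endothelium, itself called higher (1.19, adjusted p = 0.0427 by edgeR). *Crabp2* was nearest to *Dpagt1* (0.993), an enzyme that starts N-glycan synthesis, and *Aldh1a1* to *Ednrb* (0.975), an endothelin receptor that astrocytes express. *Rbp4* was nearest to *Rgs7bp* (0.993), *Aldh1a2* to *Ltbp1* (0.974), a latent TGF-β binding protein, *Stra6* to *Hibadh* (0.992), *Rarb* to *Clec1a* (0.983), *Cyp26b1* to *Dkk2* (0.965), a Wnt inhibitor, and *Ttr* to *Wdr33* (0.976).

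The mean of the 9 centered log2 CPM values was -0.01, -0.07, -0.11 and 0.06 in vehicle and 0.21, -0.06, 0.00 and -0.02 in HPβCD libraries. Since 4 of the 9 differences were above 0 and 5 below, opposite values cancel in this mean. Most alike to it were *Vamp5* (0.912), *Slc2a4* (0.906), *Wnt5b* (0.901), *Zfp825* (0.891) and *Exoc3l4* (0.888), and none of these 5 was called.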
